A study of Mus musculus with 23 samples.

Results

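The 10 genes described here encode chemokine ligands and were chosen by name: Ccl2, Ccl3, Ccl4, Ccl5, Ccl6, Ccl9, Ccl12, Cxcl10, Cxcl16 and Cx3cl1. All 10 were found among the 39017 genes of the deposited count table. They were followed across 22 mice in 6 groups. At 10 weeks the cortex came from 3 mice with the G34R, 3 with the G34V and 2 with the G34W substitution of H3f3a, each labelled heterozygous, and from 6 wild-type (WT) mice. At postnatal day 7 it came from 4 G34R and 4 WT mice, 2 males and 2 females of each. The 10-week mice were labelled male, except G34W replicate 2, which is labelled female although its title starts with M, as the titles of the mice labelled male do. It was used by its label. H3f3a encodes the replication-independent histone H3.3, and the labels state neither the strain nor how the alleles were made. Gene-level counts hold no allele, so the genotype labels could not be checked from them.

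Chemokines are small proteins that steer the migration of cells through receptors of the G-protein-coupled family. CC ligands such as Ccl2 and Ccl3 attract monocytes, macrophages and T cells. Cxcl10 is a classical interferon-induced ligand of Cxcr3. Cxcl16 and Cx3cl1 are made as membrane-bound proteins that Adam10 and Adam17 can shed. In brain, neurons make Cx3cl1 and microglia carry its receptor Cx3cr1, while reactive microglia are a known source of Ccl3 and Ccl4.

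RNA came from bulk pulverised cortex after depletion of ribosomal RNA, at 28.4 to 90.1 M (mega) counts per library. Markers of neurons summed to 3869 to 6033 CPM (counts relative to the library total, scaled between animals by the TMM method) over the 22 animals. A low gene needs care here: 3 counts, taken as the floor of detection, corresponded to 0.0344 to 0.115 CPM per animal. Of counts between 1 and 40, 68.3 to 74.8% were even numbers in each library, against 48.8 to 51.1% of counts over 1000. The 2 mates of a read pair therefore appear to have been counted singly, and 3 counts then stand for 1 to 2 pairs. The 10-week libraries also fell into 2 sets by the share of counts in mitochondrial protein-coding genes, 0.885 to 1.028% and 1.116 to 1.356%. All 3 G34R animals were in the lower set and all G34V and G34W animals in the upper set, and WT libraries were in both.

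Of the 10 genes, 8 lie on chromosome 11 (GRCm38). Ccl5 (83525778 to 83530518, minus strand), Ccl9 (83572919 to 83578636, minus), Ccl6 (83587882 to 83593087, minus), Ccl3 (83647844 to 83649355, minus) and Ccl4 (83662584 to 83664683, plus) form 1 cluster. Ccl2 (82035571 to 82037453, plus) and Ccl12 (82101845 to 82103400, plus) form another, and Cxcl16 (70453983 to 70459984, minus) stands apart. Cxcl10 lies on chromosome 5 (92346638 to 92348889, minus) and Cx3cl1 on chromosome 8 (94772009 to 94782427, plus).

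RefSeq promoter windows of GRCm38.p6, from 250 bases before to 50 bases after the start of transcription, were at hand for 6 of the 10 genes: Ccl3, Ccl6, Ccl9, Ccl12, Cxcl10 and Cx3cl1. Their 250 upstream bases are printed for 4 with unlike counts: Cxcl10, with no count in any day-7 animal, Ccl3 and Ccl12, which were low in WT and rose in G34R and G34V, and Cx3cl1, which was abundant in every group. Capitals mark matches to the motifs named after the sequences. The regions are chr5:92348890-92349139 (minus strand) for Cxcl10, chr11:83649379-83649628 (minus) for Ccl3, chr11:82101595-82101844 (plus) for Ccl12 and chr8:94771930-94772179 (plus) for Cx3cl1.
Cxcl10: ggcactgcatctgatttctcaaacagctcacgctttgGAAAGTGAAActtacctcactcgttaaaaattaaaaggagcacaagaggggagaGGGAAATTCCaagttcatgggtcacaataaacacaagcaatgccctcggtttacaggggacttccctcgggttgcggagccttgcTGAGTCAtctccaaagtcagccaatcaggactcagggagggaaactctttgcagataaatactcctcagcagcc
Ccl3: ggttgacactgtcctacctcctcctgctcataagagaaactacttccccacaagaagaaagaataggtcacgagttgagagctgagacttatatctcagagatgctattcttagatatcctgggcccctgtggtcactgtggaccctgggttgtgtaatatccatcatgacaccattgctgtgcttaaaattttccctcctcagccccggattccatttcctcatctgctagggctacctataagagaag
Ccl12: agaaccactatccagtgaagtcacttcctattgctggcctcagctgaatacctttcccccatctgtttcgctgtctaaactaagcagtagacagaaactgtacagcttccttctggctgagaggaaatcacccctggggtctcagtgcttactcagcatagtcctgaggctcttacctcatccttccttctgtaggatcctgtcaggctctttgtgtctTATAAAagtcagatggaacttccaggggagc
Cx3cl1: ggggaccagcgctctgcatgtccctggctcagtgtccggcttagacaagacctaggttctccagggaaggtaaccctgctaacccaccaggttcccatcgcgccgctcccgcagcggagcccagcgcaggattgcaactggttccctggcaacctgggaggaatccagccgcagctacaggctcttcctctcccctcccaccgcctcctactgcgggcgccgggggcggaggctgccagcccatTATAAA

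In these windows 5 motifs were searched by exact letters, on both strands except for the TATA box. The Cxcl10 window held GAAANNGAAA, the core of an interferon-stimulated response element, at -213, GGGANNTTCC, a form of the kappa-B motif, at -159 and TGANTCA, the AP-1 motif, at -74. Among all 32851 promoter windows, 3.44% held the first, 1.47% the second and 7.81% the third. TATAAA, read on the gene's strand and present in 8.32% of windows, stood at -31 for Ccl12, at -92 for Ccl9 and at -6 for Cx3cl1. The RefSeq start of Cx3cl1 lies past the gene start given above: its printed region ends at 94772179 and the gene starts at 94772009. By those gene coordinates this Cx3cl1 match is inside the gene. Ccl9 also had TGANTCA at -53. The Ccl3 and Ccl6 windows matched none of the 5, and GAGGAAGT, a PU.1 motif found in 3.2% of windows, was in none of the 6. A match is only a run of letters and was not tested as a binding site. The Cx3cl1 window held 19 CpG dinucleotides and the Cxcl10 window 10, against 3 for Ccl3 and 2 each for Ccl6, Ccl9 and Ccl12, with a median of 7 over all windows.

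The first question was what the G34R substitution went with at 10 weeks. Transcripts of 8 of the 10 ligands were higher in G34R than in WT cortex: Ccl3, Ccl4, Ccl5, Ccl6, Ccl9, Ccl12, Cxcl10 and Cxcl16. The smallest fitted rise was 2.03-fold, for Ccl9. It was largest for Ccl4, where WT held 14 counts in all and the log2 fold change ran from 4.29 to 8.77 over the alternatives. Cx3cl1, by far the most abundant ligand, did not pass the test, and Ccl2 was too low to be tested. Tests were edgeR's quasi-likelihood F tests with p adjusted by Benjamini-Hochberg over all 21274 genes tested at 10 weeks, at a threshold of 0.05, and 2.95% of those genes were called higher in G34R. Ccl3, Ccl4 and Ccl5 reached the filter's level of 0.232 CPM in 0 of 6 WT animals, so they entered the test through mutant animals only, and the count of 8 is a description.

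Ccl3 and Ccl4 encode the macrophage inflammatory proteins 1-alpha and 1-beta, and Ccl3 is a ligand of Ccr1. Ccl3 had 2.10, 0.963 and 1.51 CPM in the 3 G34R animals, against a range of 0.023 to 0.229 CPM and a median of 0.0661 CPM in the 6 WT animals. Every G34R animal was thus above every WT animal, and the WT values rested on 2 to 9 counts each. The log2 fold change was 4.18 (SE 0.424, adjusted p = 6.09e-06). Ccl4 had 0.86, 1.36 and 1.19 CPM in G34R, from 48 to 64 counts per animal, against 0 to 0.102 CPM (median 0.052) in WT, where 2 of 6 animals had no count. The fitted change was 4.65 on the log2 scale (SE 0.628, adjusted p = 0.000123). The order of the 3 G34R animals differed between this gene pair: replicate 1 had the highest Ccl3 and the lowest Ccl4.

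Ccl5, known as RANTES and made by activated T cells and by stimulated glia, had 0.161, 0.51 and 0.494 CPM in G34R animals, or 12 to 20 counts. In WT animals it had 0 to 0.0923 CPM (median 0.0237), or 0 to 4 counts. The groups did not overlap, although G34R replicate 1 lay close to the WT range. The log2 fold change was 3.54 (SE 0.822, adjusted p = 0.0144). The call was lost without G34R replicate 2, without G34R replicate 3 or with a block for runs of adjacent animal numbers (adjusted p = 0.0695). Adjusted p ran up to 0.0714 over the 17 alternatives in which Ccl5 was tested, of 20 run. Ccl5 had no value in the rest, among them the mitochondrial-share set.

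Ccl6 and Ccl9 are closely related ligands of Ccr1 that rodents have. Ccl6 had 6.91, 4.14 and 6.13 CPM in G34R and 0.808 to 1.56 CPM (median 1.23) in WT, so the lowest G34R animal was well above the highest WT animal. The log2 fold change of Ccl6 was 2.28 (SE 0.22, adjusted p = 3.65e-06). Ccl9 had 3.96, 2.92 and 2.97 CPM in G34R against 0.964 to 2.34 CPM (median 1.59) in WT, a smaller separation. The fitted log2 change was 1.02 (SE 0.273, adjusted p = 0.0362). The Ccl9 call was lost in 7 of the 20 alternatives, each of them 1 animal left out: any of the 3 G34R animals or WT replicate 1, 2, 3 or 4, with adjusted p up to 0.193.

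Ccl2 and Ccl12, monocyte chemoattractants and ligands of Ccr2, are neighbours and near relatives. Ccl12 had 1.28, 1.22 and 0.816 CPM in G34R and 0.0578 to 0.355 CPM (median 0.179) in WT, without overlap. Its log2 fold change was 2.48 (SE 0.404, adjusted p = 0.000784). Ccl2 stayed near the floor at 0.188, 0.227 and 0.148 CPM in G34R, or 6 to 14 counts, against 0 to 0.102 CPM (median 0.052) in WT. The ranges did not overlap, as for 6.16% of tested genes that were higher in G34R by this measure. In a fit with no filter, chosen for this gene after the data were seen, Ccl2 had a log2 fold change of 1.84 (SE 0.786) with an adjusted p of 0.271.

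Cxcl10 had 2.93, 1.42 and 1.73 CPM in G34R and 0.0734 to 0.369 CPM (median 0.217) in WT, again with no overlap. The log2 fold change was 3.25 (SE 0.45, adjusted p = 0.000204). Cxcl16, which attracts cells that carry Cxcr6, had 3.78, 3.46 and 2.72 CPM in G34R and 0.808 to 1.02 CPM (median 0.881) in WT. Its WT animals were close together, with an SD of 0.102 CPM, and its log2 fold change of 1.87 (SE 0.169) had the smallest adjusted p of the 10 genes in this comparison, 1.99e-06. Cx3cl1 had 520, 488 and 498 CPM in G34R and 464 to 620 CPM (median 522) in WT, so the G34R animals lay inside the WT range. Its log2 fold change was -0.06 (SE 0.081, adjusted p = 0.752).

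**Figure D1:**
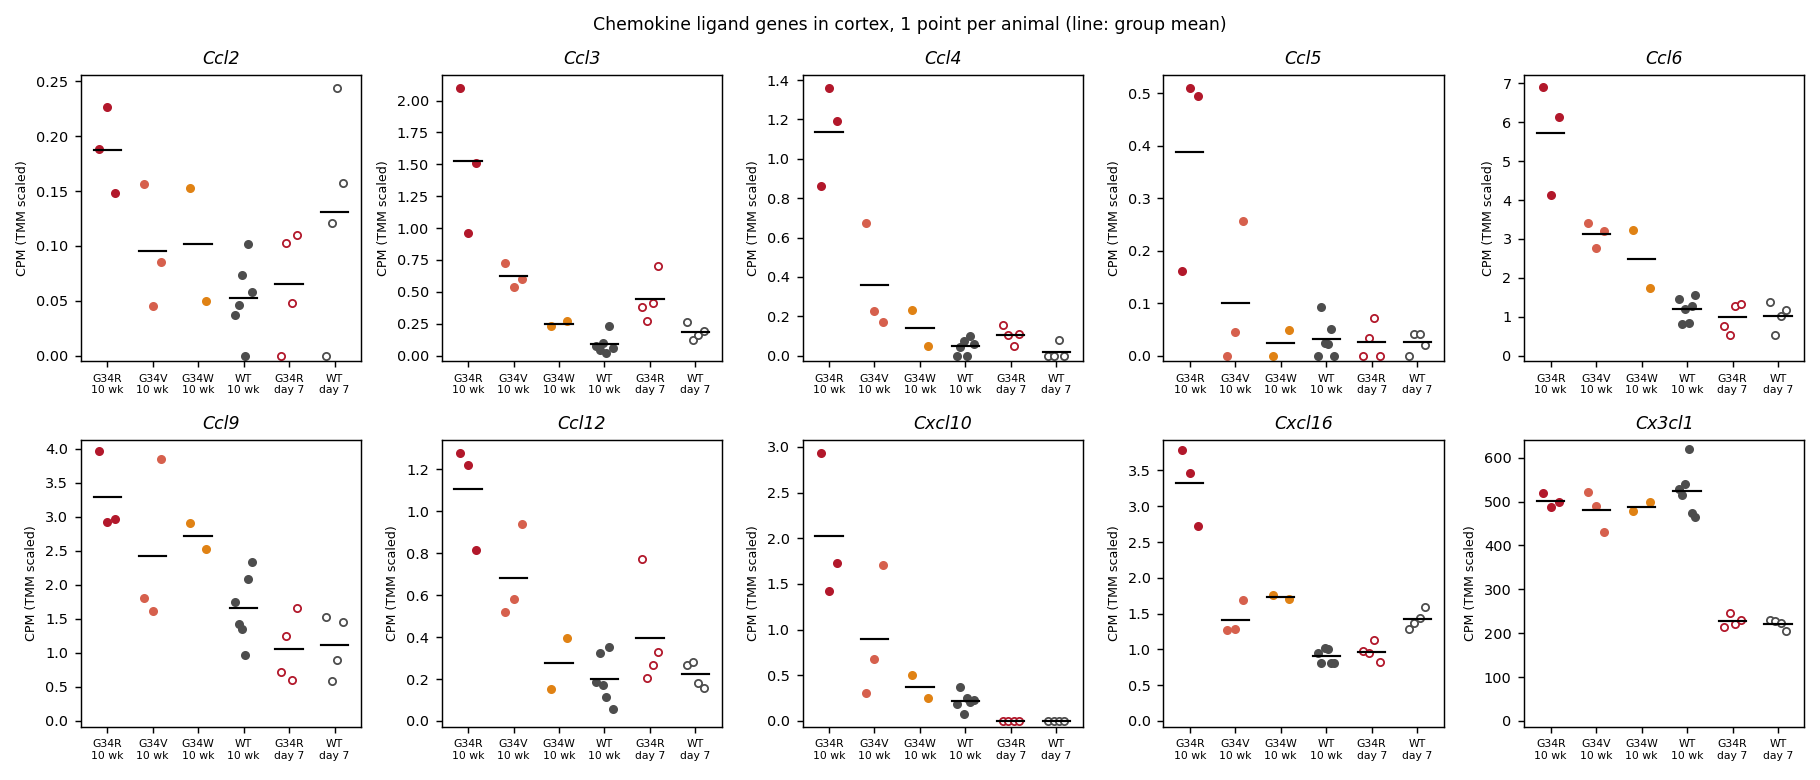
Level of each of the 10 ligand genes in every animal, in CPM on a linear axis that differs between panels, for G34R, G34V, G34W and WT at 10 weeks (filled points) and G34R and WT at day 7 (open points). Lines are group means. Ccl3 lay between 0.963 and 2.10 CPM in the 10-week G34R animals, above every WT animal, Cxcl10 was at 0 in all day-7 animals, and Cx3cl1 overlapped between genotypes at each age.

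The calls of Ccl3, Ccl4, Ccl6, Ccl12, Cxcl10 and Cxcl16 in G34R held in all 20 alternatives run, among them each animal left out and the comparison with only the WT libraries of the same mitochondrial-share set. G34R and this lower set go together, and within the set the adjusted p of these 6 genes stayed under 0.05. The median log2 fold change of the 9 tested ligands was 2.48, against -0.00355 over all tested genes. Ccl3, Ccl4 and Ccl5 entered the test through mutant animals only, and the genes were chosen with earlier results of these data known. The median is therefore a description.

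Levels per length put the ligands in order. Per kilobase of exon, Cx3cl1 stood at 128 ± 4.14 CPM per kilobase in G34R (n = 3) and 133 ± 14.2 CPM per kilobase in WT (n = 6; each ± is an SD). Ccl6 followed at 3.19 ± 0.796 in G34R and 0.663 ± 0.172 CPM per kilobase in WT. In G34R the next were Ccl12 (2.05 ± 0.467), Ccl3 (1.99 ± 0.74) and Ccl4 (1.72 ± 0.385 CPM per kilobase), whose differences from each other were smaller than their SD. Cxcl16 (1.10 ± 0.179), Ccl9 (1.08 ± 0.194) and Cxcl10 (0.899 ± 0.355 CPM per kilobase) formed a lower group, apart by less than the SD of Cxcl10. Ccl5 (0.405 ± 0.205) and Ccl2 (0.165 ± 0.0344 CPM per kilobase) came last. The order in G34R was the same with the length of the longest transcript in place of all exons.

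**Figure D2:**
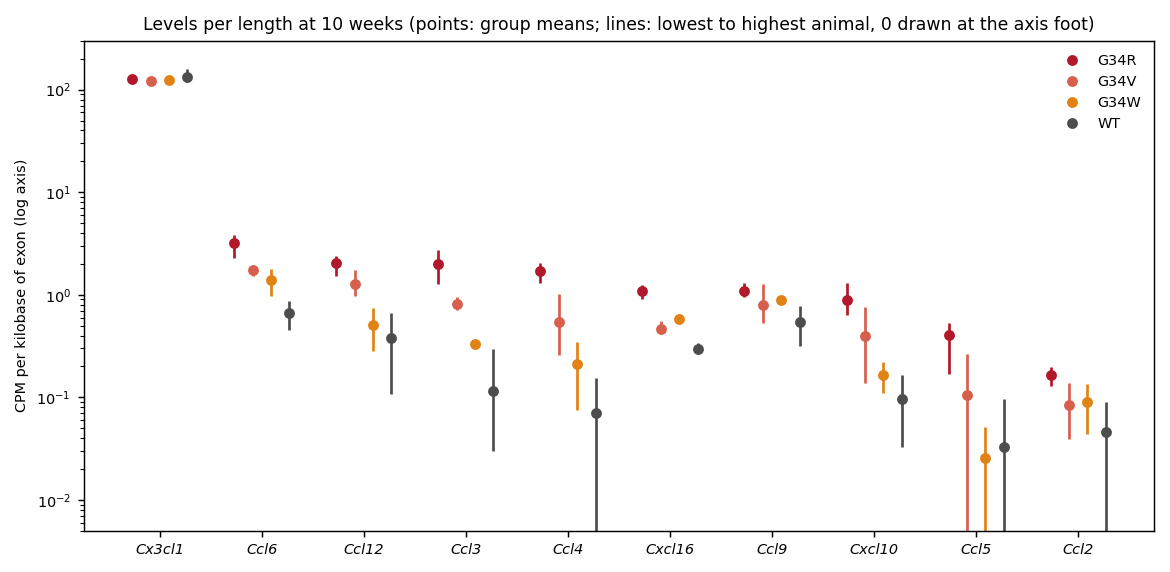
Level per kilobase of exon (CPM per kilobase, log axis) of the 10 ligand genes at 10 weeks in G34R, G34V, G34W and WT. Points are group means and lines run from the lowest to the highest animal. Cx3cl1 stood near 128 CPM per kilobase in G34R, far above Ccl6 at 3.19, and Ccl2 was lowest in G34R at 0.165.

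The second question was whether G34V cortex showed the same. G34V was compared with the same 6 WT animals, so the 3 comparisons with WT are not independent of each other. In G34V, 5 ligands rose: Ccl3, Ccl4, Ccl6, Ccl12 and Cxcl10, where 1.57% of tested genes were called higher. Ccl3 had 0.726, 0.539 and 0.597 CPM, all above the highest WT animal at 0.229 CPM. The fitted log2 change was 2.87 (SE 0.454, adjusted p = 0.000959). Ccl6 had 3.40, 2.76 and 3.20 CPM in G34V, also above all WT animals, with a log2 fold change of 1.4 (SE 0.228, adjusted p = 0.00123). These calls of Ccl3 and Ccl6 held in all 20 alternatives. The share of all tested genes whose G34V animals were all above WT is not given here, so separations in G34V are descriptions.

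The other 3 calls in G34V were less stable, and each was lost when certain single G34V animals were left out. Ccl4 had 0.674, 0.225 and 0.171 CPM in G34V against 0 to 0.102 CPM in WT, with replicate 1 far above the others, and its log2 fold change was 2.98 (SE 0.698, adjusted p = 0.0195). Ccl12 had 0.519, 0.584 and 0.939 CPM against 0.0578 to 0.355 CPM in WT, a log2 fold change of 1.78 (SE 0.421, adjusted p = 0.0202). Cxcl10 had 0.311, 0.674 and 1.71 CPM against 0.0734 to 0.369 CPM in WT, so replicate 1 lay inside the WT range. Its log2 fold change was 2.08 (SE 0.476, adjusted p = 0.0179). The Ccl4 call was lost without G34V replicate 1 and that of Cxcl10 without G34V replicate 3. The Ccl12 call was lost without G34V replicate 2 or replicate 3. Against only the WT libraries of the same mitochondrial-share set, Ccl12 (adjusted p = 0.162) and Cxcl10 (0.184) no longer passed, while Ccl3 and Ccl6 did. Ccl4 did not pass the filter in that set and has no value there. With the block for runs of animal numbers, Ccl4 (adjusted p = 0.265), Ccl12 (0.277) and Cxcl10 (0.223) did not pass in G34V.

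G34V replicate 3 was the highest of its group for several ligands: 1.71 CPM for Cxcl10, 3.84 for Ccl9, 0.939 for Ccl12, 1.69 for Cxcl16 and 0.256 for Ccl5. The same animal had the highest summed level of 16 interferon response genes in its group, 217.8 CPM against 155.9 and 167.2 CPM in the other G34V animals and 141.2 to 155.1 CPM in WT. Its microglial marker sum was also highest, 660.3 CPM against 566.5 and 519.9 CPM. The part of either in these ligand values was not tested. Cxcl16 did not pass edgeR's test in G34V, with 1.27, 1.28 and 1.69 CPM against 0.808 to 1.02 CPM in WT and no overlap (log2 fold change 0.64, SE 0.181, adjusted p = 0.0566), and DESeq2 called it higher (adjusted p = 0.0435). Ccl9 (0.58, SE 0.281, adjusted p = 0.333), Ccl5 (1.72, SE 0.975, adjusted p = 0.437) and Cx3cl1 (-0.12, SE 0.0812, adjusted p = 0.517) did not pass either.

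G34W, with 2 animals, showed 1 call. Cxcl16 had 1.76 and 1.71 CPM in G34W against 0.808 to 1.02 CPM in WT, a log2 fold change of 0.93 (SE 0.208, adjusted p = 0.0331), where 0.564% of tested genes were called higher. The call was lost without either G34W animal, without WT replicate 1 or WT replicate 5, with only the compared groups, with the block, and within the mitochondrial-share set, with adjusted p up to 0.162. Ccl6 had 3.22 and 1.74 CPM in G34W, both above the highest WT animal at 1.56 CPM (log2 fold change 1.05, SE 0.273, adjusted p = 0.0647 by edgeR). Ccl6 passed with DESeq2 (adjusted p = 0.0118), with no filter (0.048), and without G34W replicate 2 (0.026) or WT replicate 6 (0.0475). With sex as a covariate the Cxcl16 call was lost and Ccl6 passed, but that fit leaves 1 G34W animal and decides neither. Ccl3, at 0.23 and 0.273 CPM, lay just above the highest WT animal at 0.229 CPM (1.59, SE 0.61, adjusted p = 0.194). Ccl9, at 2.91 and 2.53 CPM, was above the WT maximum of 2.34 CPM (0.74, SE 0.326, adjusted p = 0.259). The share of all tested genes with both G34W animals above WT is not given here either, so these separations are descriptions. Ccl4, Ccl5, Ccl12, Cxcl10 and Cx3cl1 overlapped with WT in G34W, with adjusted p from 0.454 to 0.995.

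**Figure D3:**
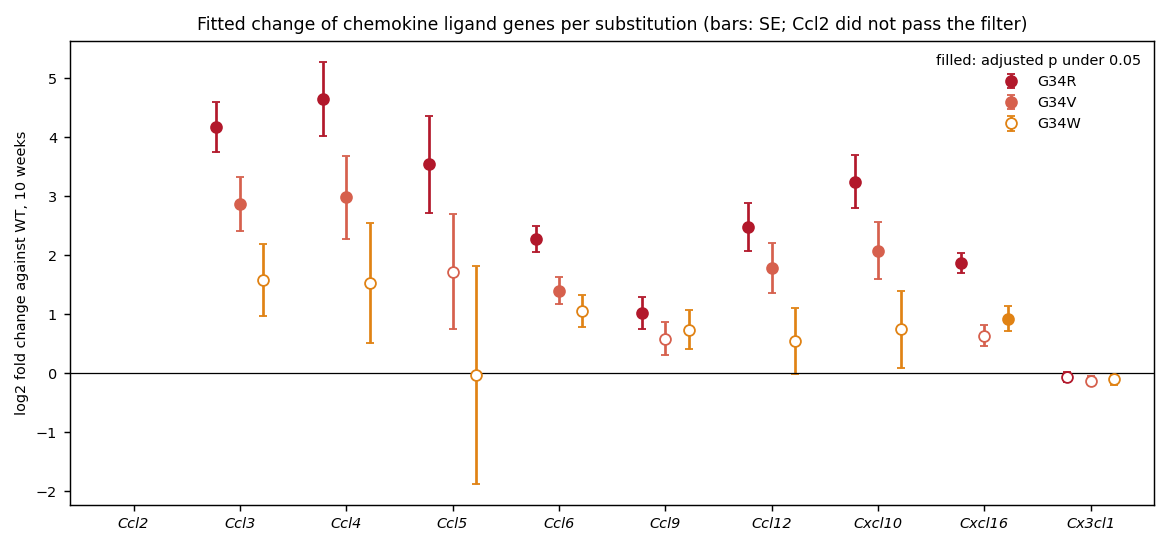
Fitted log2 fold change against WT at 10 weeks of each ligand gene in G34R, G34V and G34W, with bars of 1 SE, and filled points where the adjusted p was under 0.05. G34R has the largest estimate for each of the 8 genes called in it, from 1.02 for Ccl9 to 4.65 for Ccl4, and Cx3cl1 lies near 0 in all 3.

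The differences between substitutions were tested directly in the same fit. The G34R animals were all in the lower mitochondrial-share set, and the G34V and G34W animals all in the upper. Where G34R is compared with either, substitution and set cannot be told apart. G34R exceeded G34V for Cxcl16 by 1.23 on the log2 scale (SE 0.203, adjusted p = 0.0142), the only ligand called among 9 tested, where 0.174% of genes were called higher. That call was lost without either of G34R replicates 1 and 2 or G34V replicates 1 and 2. For Ccl3 the difference of G34R from G34V was 1.31 (SE 0.443, adjusted p = 0.284) and for Ccl6 0.88 (SE 0.257, adjusted p = 0.198). Ranges of G34R and G34V did not overlap for Ccl3, Ccl4, Ccl6 and Cxcl16, as for 9.25% of tested genes.

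G34R exceeded G34W for Ccl3 (2.59, SE 0.585, adjusted p = 0.033), Ccl6 (1.24, SE 0.306, adjusted p = 0.0468) and Cxcl16 (0.94, SE 0.233, adjusted p = 0.0473), where 0.945% of genes were called higher. The 3 calls were lost with sex as a covariate, but the 1 animal labelled female at 10 weeks is G34W replicate 2, so that fit leaves 1 G34W animal and sex and this animal cannot be told apart. Leaving out 1 G34R or G34W animal left 0 or 1 of them. With only the compared groups, the Ccl6 and Cxcl16 calls were lost, while Ccl4 and Cxcl10 were gained. The Cxcl16 call was also lost with no filter. Between G34V and G34W, 0 of 9 ligands were called by edgeR, where 0.15% of genes were called either way. Only Ccl3 (1.28, SE 0.594, unadjusted p = 0.0456) had an unadjusted p under 0.05 in that comparison, and DESeq2 called 0 as well.

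At day 7, 6 of the ligands passed the filter and 0 of these 6 differed between G34R and WT by edgeR, where 0.308% of 20451 tested genes were called either way. Ccl3 and Cxcl16 had unadjusted p under 0.05, and DESeq2 called 0 too. Ccl3 had 0.385, 0.275, 0.41 and 0.70 CPM in G34R and 0.265, 0.121, 0.163 and 0.196 CPM in WT. The lowest G34R animal lay just above the highest WT animal, at 16 counts against 8. The log2 fold change was 1.28 (SE 0.401, adjusted p = 0.376). Cxcl16 went the other way, with 0.977, 0.944, 1.13 and 0.829 CPM in G34R and 1.29, 1.37, 1.44 and 1.59 CPM in WT, and no overlap. Its log2 fold change of -0.55 (SE 0.185) had an adjusted p of 0.449. Ranges did not overlap for 2.28% of tested genes that were higher and 2.91% that were lower in G34R.

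Ccl6 had 0.771, 0.532, 1.28 and 1.34 CPM in day-7 G34R animals and 1.39, 0.524, 1.02 and 1.18 CPM in WT, with full overlap (log2 fold change -0.09, SE 0.314, adjusted p = 0.977). Ccl9 overlapped in the same way, at 0.603 to 1.66 CPM in G34R and 0.585 to 1.53 CPM in WT. Ccl12 was at 0.206 to 0.771 CPM in G34R, where replicate 1 was highest, and at 0.157 to 0.282 CPM in WT (0.80, SE 0.443, adjusted p = 0.761). Cx3cl1 was at 214 to 247 CPM in G34R and 204 to 231 CPM in WT (0.05, SE 0.0542, adjusted p = 0.913).

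The 4 ligands below the filter at day 7 were at or near the floor. Ccl2 had 0 to 0.11 CPM in G34R and 0 to 0.244 CPM in WT. Ccl4 had 2 to 6 counts in each G34R animal and 0 counts in 3 of 4 WT animals. Ccl5 had at most 3 counts in any animal of either genotype. Cxcl10 had 0 counts in all 4 G34R and all 4 WT animals, which allows a level of up to 0.0156 CPM in G34R and 0.0167 CPM in WT from a floor of 3 counts over each group.

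Whether the G34R difference changed with age was tested as an interaction in a fit of all 22 animals. It was larger at 10 weeks than at day 7 for Ccl3 (by 2.90 on the log2 scale, SE 0.63, adjusted p = 0.019), Ccl6 (2.33, SE 0.418, adjusted p = 0.00381) and Cxcl16 (2.43, SE 0.235, adjusted p = 4.05e-06), where 0.562% of 22417 tested genes were called in this direction. For Ccl6 and Cxcl16 the call held in every alternative run, while that of Ccl3 was lost with male animals only (adjusted p = 0.0996) and without G34R replicate 1 of 10 weeks, WT replicate 1 of day 7 or WT replicate 4 of day 7. Ccl4 (2.54, SE 1.51, adjusted p = 0.573), Ccl5 (3.60, SE 1.63, adjusted p = 0.409), Ccl12 (1.67, SE 0.648, adjusted p = 0.303), Ccl9 (1.05, SE 0.484, adjusted p = 0.424), Ccl2 (2.83, SE 1.07, adjusted p = 0.29) and Cx3cl1 (-0.10, SE 0.105, adjusted p = 0.785) did not pass. For Cxcl10 the interaction has no estimate, since day 7 held no count.

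**Figure D4:**
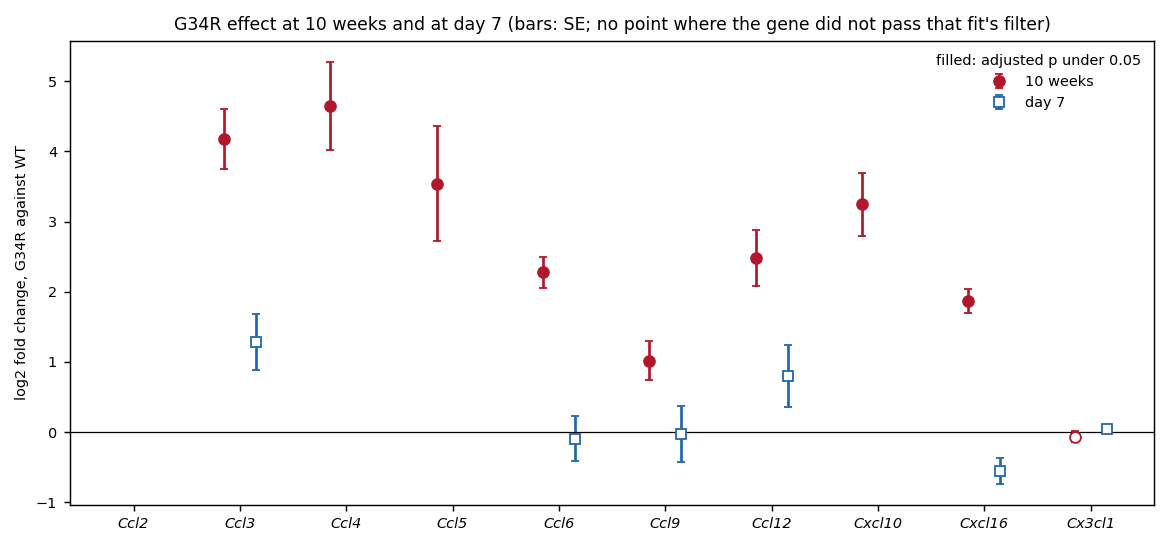
Fitted log2 fold change of G34R against WT at 10 weeks (circles) and at day 7 (squares) for each ligand gene, with bars of 1 SE, and filled points where the adjusted p was under 0.05. Genes that did not pass a fit's filter have no point. Ccl6 stands at 2.28 at 10 weeks and -0.09 at day 7, and Cxcl16 at 1.87 and -0.55.

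Ligand levels in WT cortex were also compared between ages, although age and the set of libraries cannot be told apart. Of the 10 ligands, 2 were higher and 2 lower at 10 weeks than at day 7, where 33.3% of tested genes were called higher and 34.4% lower. The ligands were thus called no more often than genes at large, and the counts are a description. Cx3cl1 stood at 464 to 620 CPM in WT at 10 weeks and at 204 to 231 CPM at day 7, a log2 fold change of 1.24 (SE 0.0706, adjusted p = 1.09e-13). Cxcl10 averaged 0.219 ± 0.0964 CPM (SD, n = 6) in WT at 10 weeks, at least 13.2-fold higher than the day-7 floor of 3 counts over the group and at least 6.58-fold higher than a floor of 6 counts. In G34R the 10-week mean of 2.03 ± 0.798 CPM (n = 3) was at least 130-fold above the 3-count floor and at least 65.1-fold above the 6-count floor. Cxcl16 was lower in WT at 10 weeks, at 0.808 to 1.02 CPM, than at day 7, at 1.29 to 1.59 CPM (-0.65, SE 0.155, adjusted p = 0.00073). Ccl3 was also called lower (-1.11, SE 0.478, adjusted p = 0.044), a call that was lost in 11 of 18 alternatives, among them males only (adjusted p = 0.138) and leaving out WT replicate 1, 2, 4 or 6 of 10 weeks or WT replicate 1, 3 or 4 of day 7.

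Receptors of these ligands were measured in the same animals. Of 23 chemokine receptor genes, 13 passed the filter at 10 weeks, of which 4 rose and 0 fell in G34R, with a median log2 fold change of 0.509 against -0.00355 over all genes. Among all tested genes, 2.95% were called higher in G34R. Cx3cr1, the receptor of Cx3cl1, stood at 71.3 CPM in G34R and 44.7 CPM in WT (log2 fold change 0.67, SE 0.077, adjusted p = 2.22e-05). It was also higher in G34V, at 55.2 CPM (0.30, SE 0.0781, adjusted p = 0.0341), and in day-7 G34R, at 34.8 CPM against 25.7 CPM in WT (0.45, SE 0.0632, adjusted p = 0.0253). The day-7 call was lost without any 1 of 6 of the 8 animals, with adjusted p up to 0.137. Its ligand Cx3cl1 did not pass in any of these comparisons.

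Ackr2, a decoy receptor that removes CC chemokines, was at 5.45 CPM in G34R and 2.68 CPM in WT (1.01, SE 0.193, adjusted p = 0.00319), and within the mitochondrial-share set its adjusted p was 0.0628. Cxcr4, the receptor of Cxcl12, was at 2.36 CPM in G34R and 1.33 CPM in WT (0.82, SE 0.178, adjusted p = 0.00891), a call lost without G34R replicate 1 and within the set (adjusted p = 0.0691). Ccr1, at 0.493 CPM in G34R and 0.23 CPM in WT (1.10, SE 0.443, adjusted p = 0.188), and Ccr2, at 0.498 and 0.354 CPM in the same order (0.51, SE 0.322, adjusted p = 0.446), did not pass. Ackr1, a scavenging receptor of venular endothelium and red cells, was at 7.78 CPM in G34R and 7.60 CPM in WT (0.05, SE 0.167, adjusted p = 0.929). Cxcr3, Cxcr6 and Ccr3 did not pass the filter: their G34R means were 0.0608, 0.065 and 0.0632 CPM, from 8 to 12 counts over the 3 animals, and their WT means were 0.0062, 0.0439 and 0.0062 CPM.

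Of 27 other chemokine ligand genes, 14 passed the filter and 2 rose in G34R, where 2.95% of all tested genes were called higher. Their median log2 fold change was 0.35 over the 14. Cxcl9, like Cxcl10 a ligand of Cxcr3, had 10 to 26 counts in each G34R animal and 4 counts in all over the 6 WT animals, 0.409 CPM on average in G34R against 0.00765 CPM in WT (adjusted p = 0.00233). Cxcl13, a B-cell attractant, had 32 counts over the 3 G34R animals, of which 1 had none, and 2 counts over the 6 WT animals (adjusted p = 0.0225). Its call was lost without WT replicate 3 and under DESeq2 (adjusted p = 0.0685). For both genes 0 of 6 WT animals reached the filter's level, so they entered the test through mutant animals and the count is a description.

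Among 7 tested genes of proteases that process chemokines, 1 rose in G34R, where 2.95% of all tested genes were called higher. This was Ctss, cathepsin S, which can release soluble Cx3cl1, at 141 CPM in G34R and 53.3 CPM in WT (log2 fold change 1.4, SE 0.0856, adjusted p = 4.14e-08). The sheddases of Cx3cl1 and Cxcl16 did not pass: Adam10 stood at 87.8 CPM in G34R and 89.1 CPM in WT (-0.02, SE 0.0527, adjusted p = 0.881), and Adam17 at 20.3 CPM in G34R and 17.6 CPM in WT (0.21, SE 0.0745, adjusted p = 0.13).

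Genes of interferon and NF-kappa-B signalling were read from 2 lists. Of 16 interferon response genes, a list of receptors, transcription factors and interferon-induced effectors, all tested, 11 rose and 0 fell in G34R (median log2 fold change 1.21), against 4 in G34V, 0 in G34W and 0 of 15 in day-7 G34R by edgeR. DESeq2 also called 0 in G34W and at day 7, and the unadjusted p was under 0.05 for 3 genes in G34W and 1 at day 7. Among all tested genes, edgeR called 2.95% higher in G34R, 1.57% in G34V and 0.564% in G34W. At day 7 it called 0.308% either way. In G34R, genes that rose included the transcription factor genes Irf8 (1.28, SE 0.122, adjusted p = 3.33e-06) and Irf9 (1.14, SE 0.141, adjusted p = 5.06e-05) and the antiviral gene Rsad2 (1.55, SE 0.257, adjusted p = 0.000992). Of 14 tested genes of NF-kappa-B and of cytokines, receptors and an adaptor that act through it, 4 rose in G34R and 0 fell (median 0.212). Among all tested genes, 2.95% were called higher. They were Tlr2, a receptor of bacterial lipoproteins (2.15, SE 0.186, adjusted p = 1.29e-06), the TNF receptor gene Tnfrsf1a (0.79, SE 0.128, adjusted p = 0.000747), the cytokine gene Il1a (1.17, SE 0.284, adjusted p = 0.0198) and the endotoxin receptor gene Tlr4 (0.77, SE 0.19, adjusted p = 0.0208). The Tlr4 call was lost without any 1 of the 3 G34R animals, and that of Il1a without G34R replicate 1 or replicate 2. The NF-kappa-B subunit genes Nfkb1, Nfkb2, Rel, Rela and Relb, and Nfkbia and Tnfaip3, were not among the genes called.

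Markers of the cells that can make or receive these ligands were counted beside them. In bulk cortex, more cells of a type and more RNA per cell cannot be told apart. Among all tested genes, 2.95% were called higher in G34R, 1.57% in G34V and 0.564% in G34W. At day 7, 0.308% were called either way. Of 14 microglial markers, 11 rose and 0 fell in G34R, 6 rose in G34V, 1 in G34W and 3 in day-7 G34R, with median log2 fold changes of 0.522, 0.302, 0.243 and 0.434. Summed over the list they ranged from 709.1 to 815.3 CPM in G34R, 519.9 to 660.3 in G34V and 475.4 to 550.3 in G34W, against 420.3 to 460.1 CPM in WT. At day 7 the sums were 242.2 to 271.5 CPM in G34R and 187.6 to 222.4 CPM in WT. The sums of the mutant groups did not overlap with those of WT at either age, and their part in the ligand values was not tested.

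Markers of border macrophages and monocytes summed to 16.4 to 17.95 CPM in G34R and 13.15 to 16.76 CPM in WT, and 0 of 8 tested passed with edgeR or DESeq2, with 0 at an unadjusted p under 0.05. Markers of T and NK cells summed to 3.642 to 4.788 CPM in G34R and 3.467 to 7.702 CPM in WT. Most of these sums was Cd4, at a mean of 3.68 CPM in G34R and 5.23 CPM in WT. No other gene of the 12 had a mean above 0.23 CPM in G34R or 0.18 CPM in WT. Of the T and NK cell markers, 0 of 2 tested passed with edgeR or DESeq2, or had an unadjusted p under 0.05. Neutrophil markers summed to 0.173 to 0.5949 CPM in G34R and 0.1847 to 1.445 CPM in WT. Of them, 0 of 2 tested passed with edgeR or DESeq2, or had an unadjusted p under 0.05. Of 9 astrocyte markers, Gfap alone rose in G34R (log2 fold change 1.82, adjusted p = 7.41e-11), a call that held in all 20 alternatives. Of 10 neuron markers, Neurod6 alone passed, lower in G34R (-0.35, adjusted p = 0.0384), a call lost without any 1 of the 3 G34R animals or without WT replicate 1, 2 or 3. Of 8 endothelial markers, Esam alone passed, lower in G34R (-0.43, adjusted p = 0.021), a call lost without G34R replicate 2 or replicate 3 and within the mitochondrial-share set (adjusted p = 0.208). Of 10 markers of neighbouring tissue, Rarres2 alone passed, higher in G34R (0.50, adjusted p = 0.036), a call lost without G34R replicate 1 or 3 or WT replicate 2, 3, 4 or 6, with adjusted p up to 0.253.

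Genes whose level moved most like a ligand were ranked by Pearson's r of log2(CPM + 0.1) over the 14 animals at 10 weeks, among 21234 genes. These animals share genotype groups and library sets, so r describes this set of samples. For Ccl3 the highest were Ugt1a6a (0.972), the lysosomal gene Cd68 (0.969) and the hexokinase gene Hk2 (0.962). For Cxcl10 they were Irf9 (0.964), Trim30a (0.96) and Ifit3b (0.948), and for Cxcl16 the Fc receptor gene Fcer1g (0.94), Naip2 (0.939) and Igfbp5 (0.938). For Cx3cl1 they were the protein kinase A gene Prkaca (0.906), Ppme1 (0.893) and Ankrd34a (0.889). With a pseudocount of 1 CPM, the genes nearest to Cx3cl1 were the same 3, while Cd68, Cst7 and Grn led for Ccl3, Ifit3b, Ifit3 and Trim30a for Cxcl10, and Clec7a, Naip2 and Spi1 for Cxcl16.

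Neighbours of the chromosome 11 cluster were read to see whether genes beside the ligands moved. In the stretch around Ccl5 to Ccl4 (83425778 to 83764683), 7 other genes were tested, and 0 were called by edgeR or DESeq2 in G34R, G34V or G34W, with 0, 2 and 2 at an unadjusted p under 0.05 and smallest adjusted p of 0.28, 0.171 and 0.272. Some ligand genes share bases with a gene on the opposite strand, and the strand setting of the counting is not stated, so reads there cannot be told apart. Zmynd15, which overlaps Cxcl16, averaged 0.911 CPM in G34R and 0.307 CPM in WT, with a log2 fold change of 1.59 (adjusted p = 0.00887). Art3, which overlaps Cxcl10, averaged 2.21 CPM in G34R and 2.02 CPM in WT (0.12, adjusted p = 0.818). The genes overlapping Ccl2 and Ccl6 had at most 0 and 10 counts in any animal.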

How the data were processed

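The deposited table held raw counts per Ensembl gene for 23 libraries of rRNA-depleted total RNA from mouse cortex. The submitters' processing notes name Trimmomatic 0.32, STAR 2.3.0e, bedtools 2.27.1, featureCounts 1.4.4 and the mm10 build, without their roles; the annotation release, the strand setting and the treatment of multiply mapped reads are not stated. Groups followed the labels. The 2 libraries of animal 2498 (WT replicate 3) were summed, leaving 22 animals. Genes of chromosome Y and Xist and Tsix were removed before testing.

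Counts were scaled by TMM, filtered with filterByExpr and tested with edgeR 4.0.16 (R 4.3.3, limma 3.58.1; robust quasi-likelihood, Benjamini-Hochberg over all tested genes, threshold 0.05). Separate fits covered the 14 animals at 10 weeks, the 8 at day 7 (with sex as covariate) and all 22. An SE is the log2 fold change divided by the square root of F. CPM share 1 scale over 22 animals. The scripts were tested on simulated data in which only genes of higher level were changed, so that test does not cover ligands with few counts. Replicates are separate animals by their numbers in the titles. Coordinates and lengths are from GENCODE M21 (GRCm38). The members and gene lists were chosen with earlier results of these data known. Named beside the 10 ligands were up to 4 genes per list with the smallest adjusted p in G34R. Also named were the ligands' receptors and sheddases, and the 3 genes most like 4 of the ligands. Of the cell type markers only examples are named, and Zmynd15, Art3, Esam, Rarres2 and Cd4 were named after their values were seen. Some genes that this rule names are not reported here. Alternatives were other scaling and filters, DESeq2 1.42.0, sex and number-run terms, mitochondrial-share sets, single animals left out and, chosen after seeing the data, halved counts.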

Additional observations from a re-analysis of the deposited data

Results flagged for a closer look

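Ccl3 in WT replicate 5 at 10 weeks, at 0.229 CPM (9 counts), lay far from the other 5 WT animals at 0.023 to 0.0979 CPM (2 to 8 counts). Ccl4 in WT replicate 3 at day 7, at 0.0813 CPM (4 counts), was the only WT animal of that age with a count. These were 2 of 28 sets examined, each 1 gene in 1 group of animals, and chance flags about 1 in 20. That rate does not describe Ccl4 here, since any count is flagged where all other animals are at 0.

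The G34R difference from WT was larger at 10 weeks than at day 7 by an interaction test for Ccl3 (2.90 on the log2 scale), Ccl6 (2.33) and Cxcl16 (2.43).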

How the results depend on the processing

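Depth limits Ccl2, Ccl3, Ccl4 and Ccl5, with at most 9 counts in any WT animal at 10 weeks. In G34R against WT, Ccl5 was tested in 17 of 20 alternatives and could not be called in the others. The number of ligands called in G34R against WT was 8, and 7 with the block described next and 6 to 8 with 1 animal left out. In G34V it was 5, and 6 with DESeq2, 2 with a block for runs of adjacent animal numbers, 2 within the mitochondrial-share set and 3 to 5 with 1 animal left out (3 without G34V replicate 3). In G34W it was 1, and 2 with no filter or DESeq2, 0 with only the compared groups, the block or the mitochondrial-share set, and 0 to 2 with 1 animal left out. For G34R against G34V it was 1, and 0 with the block and 0 to 1 with 1 animal left out. For G34R against G34W it was 3, and 6 with DESeq2, 0 with the block or sex as a covariate, and 0 to 1 with 1 animal left out. In that comparison Cxcl16 was also lost with no filter and with the libraries of WT replicate 3 kept apart. With only the compared groups, Ccl6 and Cxcl16 were lost and Ccl4 and Cxcl10 gained. Ccl4 was also gained with halved counts. Between ages the interaction count of 3 became 2 to 3 and the WT count of 4 became 3 to 4 with 1 animal left out. No paired analysis was possible because the animal numbers pair no animals across groups. The block of number runs is only a hint from the titles, and the sex covariate at 10 weeks absorbs G34W replicate 2.

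Direction changed only for values that did not pass. In G34W against WT, Ccl5 was 0.02 with halved counts, 0.13 with the block and -3.7 to 0.67 with 1 animal left out, Ccl12 was -0.36 with the sex covariate and -0.36 to 1 with 1 animal left out, and Cx3cl1 was 0.06 with the block. In G34V against WT, Ccl5 was -0.31 to 2.24 with 1 animal left out. Cx3cl1 was -0.05 with the block and -0.0024 to 0.13 with 1 animal left out in G34R against G34V, and -0.26 with the block in G34R against G34W. In G34V against G34W, Ccl6 and Cx3cl1 were -0.04 and 0.02 with the sex covariate, Ccl9 was 0.54 with the block, and leaving out 1 animal gave -0.27 to 5.41 for Ccl5, -0.04 to 0.84 for Ccl6, -0.66 to 0.07 for Ccl9 and -0.08 to 0.05 for Cx3cl1. At day 7, Ccl9 was 0.03 with halved counts and -0.37 to 0.27 with 1 animal left out, and Ccl6 -0.25 to 0.28. For the interaction, Ccl4 was -1 with males only and -0.71 to 2.96 with 1 animal left out. For WT age, Ccl5 was -0.15 with halved counts, and leaving out 1 animal gave -0.4 to 0.38 for Ccl5, -0.0089 to 0.38 for Ccl6 and -0.36 to 0.0028 for Ccl12. The causes were not tested.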
